A study of Salmo salar with 57 samples.

Results

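Atlantic salmon (Salmo salar) fed soybean meal together with the yeast Candida utilis (the CU diet) were compared with salmon fed a fish meal diet without soybean meal (the FM diet), across all probes of an oligonucleotide array of the distal intestine. The CU fish were the samples with letter D in their titles and the FM fish those with letter A, 10 fish each, which are 20 of the 57 arrays of the series. All were non-vaccinated post smolts, young salmon already living in seawater, and were sampled after 4 weeks on the diets. The strain, sex and age of the fish are not given in the sources used here. The other arrays came from fish fed soybean meal alone (SBM, 7 fish) or soybean meal with Saccharomyces cerevisiae (SC), Kluyveromyces marxianus (KM) or the alga Chlorella vulgaris (CV), 10 fish each. The paper left out a tank of SBM fish as outliers, because their histology differed from that of the other SBM tanks. The CU diet differed from FM in its soybean meal, its yeast, its lower fish meal and its higher fish oil, and held less crude protein and crude lipid by analysis. These differences cannot be told apart in the comparison with FM. The comparison asks how far gene expression in the intestine of fish fed CU departed from that of the fish meal control.

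The distal intestine of salmon is lined by tall enterocytes with large vacuoles above the nucleus, which take up whole macromolecules by endocytosis and break them down in lysosomes. Extracted soybean meal is known to cause an inflammation of this segment, with shorter folds, loss of the vacuoles and leukocytes in the lamina propria. Candida utilis is a fodder yeast, rich in protein and nucleic acids, with a cell wall of mannans and glucans.

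Each array measured 1 fish, and probe brightness was compared as normalised log2 intensity, on which a difference of 1 is a doubling. In CU arrays the median spot signal before normalization was between 87.8 and 267 (median 161), and in FM arrays between 89.5 and 203 (median 125). Spots too dim or too uneven to use numbered 1757 to 2762 per CU array (median 2298) and 1576 to 3320 per FM array (median 2094). Histology scores came with the labels as 4 categories per fish (lamina propria, epithelium, atrophy and oedema), and a higher score is a stronger change. Their sum was 6 in CU fish 4, 4 in fish 1 and 2, 2 in fish 8, 1 in fish 10, 0.5 in fish 6 and 0 in the other 4 CU fish, while all 10 FM fish had 0. The mean was 1.75 ± 2.18 in CU and 0 ± 0 in FM (SD, n = 10 each). The scores served to tie the letters to the diets and are described without a test.

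The place of an array on its slide followed the diet. All 10 CU arrays lay in column 1 of their slides and 9 of the 10 FM arrays in column 4, with only FM fish 10 in column 1, so that slide position and diet can hardly be told apart. Among 599 probes called without FM fish 10, this fish lay nearer to the mean of the other 9 FM fish than to the CU mean for 496 (82.8%). That count rests on 1 fish, and the same share over all probes was not taken. Of 9 slides with an array of each diet, all 9 agreed in direction for 193 of the 641 called probes, and at least 8 for 445. Arrays were scanned on 2 days, with 5 CU and 5 FM fish on each, and 638 of the 641 called probes had the same sign on both days. The 641 were called on these same fish, so agreement by slide or by day follows in part from that choice. These counts are no independent evidence, and shares over all probes were not taken. The median log2 fold change (FC, CU minus FM) over all probes was −0.12 in the fish of day 1 and 0.11 in those of day 2. Each diet was fed in triplicate tanks, so that fish of a diet shared tanks and its 10 fish are fewer than 10 independent units. The tank of each fish is not given in the sources used here, so fish entered as independent samples, and the p-values measure the spread between these fish and may be too small.

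Of 12065 probes, 641 (5.31%) were differentially expressed (DE) between CU and FM fish, 243 (2.01%) higher and 398 (3.3%) lower in CU. A probe was called DE when limma's nested F-test over the 5 diets against FM, with Benjamini-Hochberg adjustment, passed 0.05 for CU and its log2 FC reached 0.4 in either direction. The CU against FM contrast alone called 467 probes (3.87%), 196 higher (1.62%) and 271 lower (2.25%), and 462 of these were among the 641. This contrast leaves out the changes in the other diets, but its estimate of the spread came from the fish of all diets. With CU and FM fish alone in the model 144 probes were called. The adjusted p given for each gene below is that of its own contrast. Changes were mostly small, with a median size of 0.55 on the log2 scale among the called probes and 54 probes of at least 1 in size, 29 higher and 25 lower. The median log2 FC over all probes was −0.01. The CU and FM fish did not overlap at all for 15 probes (0.124%), 10 higher and 5 lower in CU, and all 15 were called.

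**Figure D1:**
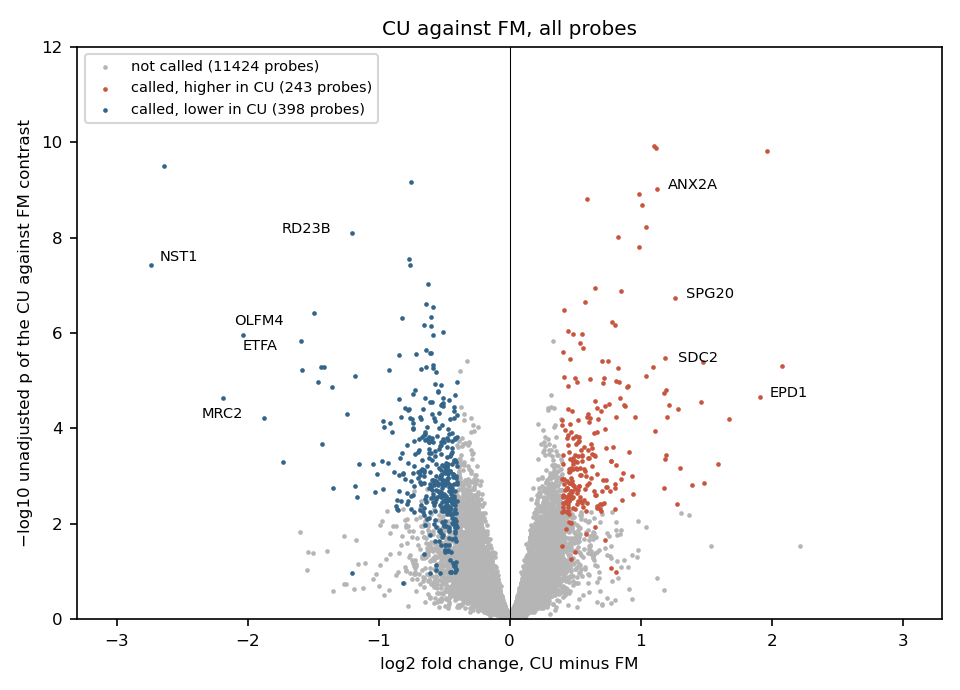
Each point is 1 of the 12065 probes, with the log2 FC of CU minus FM on the x axis and −log10 of the unadjusted p of the contrast on the y axis. The 243 probes called higher in CU lie on the right and the 398 called lower on the left, and NST1 at −2.74 and EPD1 at 1.91 are the named genes farthest out on each side.

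The share of higher against lower calls depended on how arrays were brought to one scale. With quantile normalization 37.9% of calls were higher in CU. The share was 26.3% with arrays scaled to their 75th percentile (187 higher, 523 lower), 50.7% with no spot set to missing (347 and 338), 50.2% where dim spots were taken out only after normalization (327 and 324) and 48.5% with the deposited normalised values (313 and 332). Quantile normalization, 75th percentile scaling, no filter on dim spots and the deposited values shared 460 calls, 179 higher and 281 lower. The fits within a scan day, here and below, cut only CU and FM fish to that day and kept the other diets' fish of both days in the model. Within scan day 1 there were 52 higher and 711 lower calls, and within day 2 289 higher and 109 lower. The 243 probes called higher had a median log2 FC of 0.46 on day 1 and 0.67 on day 2, and the 398 called lower −0.67 and −0.44. With slide column as a block the nested test called 842 probes, 102 higher and 740 lower (12.1% higher). In the contrast alone 467 probes passed without that block and 1 with it, where 1851 had an unadjusted p under 0.05 and 632 of the 641 kept their sign. The median standard error (SE) was 0.258 with the block, against 0.145 without the block.

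**Figure D2:**
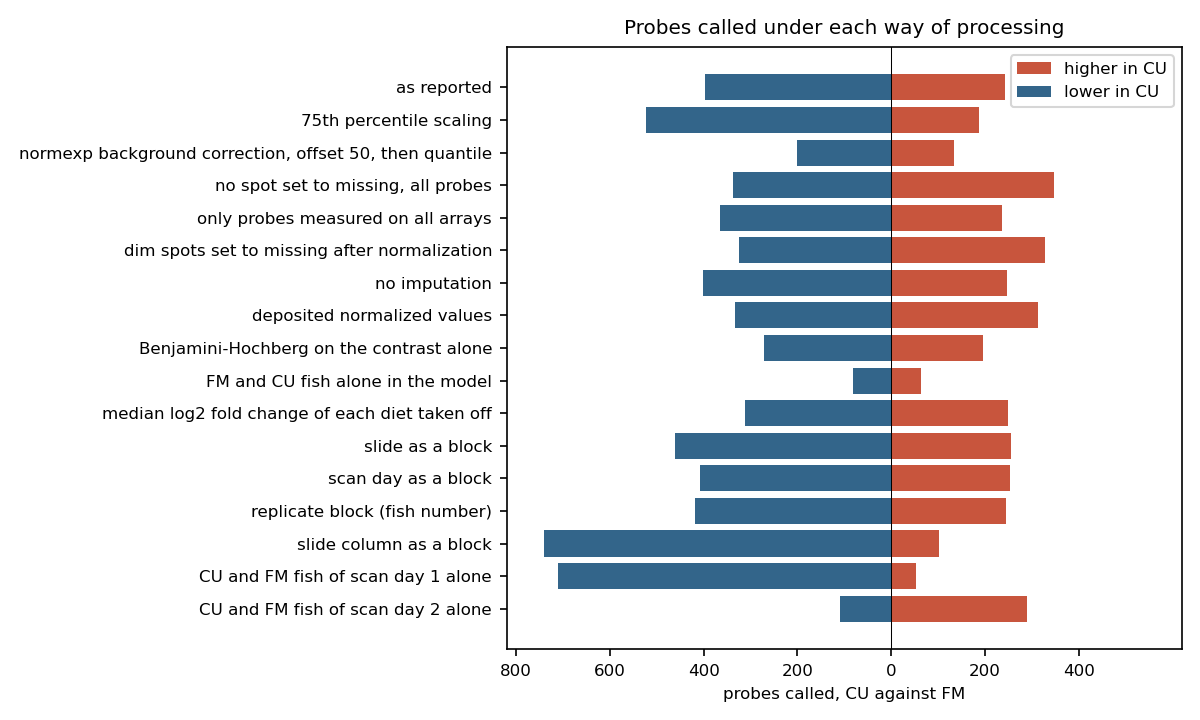
Bars show the number of probes called in CU against FM under each way of processing, with those higher in CU to the right of 0 and those lower to the left. As reported, 398 probes were lower and 243 higher, and over the settings drawn between 81 and 740 were lower and between 52 and 347 higher.

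Gene symbols came from tables of DE probes in these same fish. A name was found for 2331 of the 12065 probes (2060 symbols). By that choice 16.8% of the named probes were called, 6.91% higher and 9.91% lower, and counts over named genes are no independent evidence. List shares set beside the 16.8% below count calls in both directions. For a list called in 1 direction only, the like share is the 6.91% or the 9.91%. At an unadjusted p under 0.05 of limma's contrast 2587 of the 12065 probes passed, both directions together. The share over named probes at that limit was not taken, so whether list counts at it stand out cannot be told. Counts of the probes of a gene take in named probes only. A probe of the same gene that was DE in no diet would carry no name, so agreement among them is no independent evidence. Salmon carry duplicated genes, and probes of one symbol may pick up more than 1 copy.

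The largest rises among named genes included secreted and cell-surface proteins. EPD1 (ependymin-1, a secreted glycoprotein first described in fish brain fluid) ranged over 4.94, 6.05 and 8.21 in CU fish (lowest, median and highest), against 3.25, 4.40 and 6.03 in FM fish. Its log2 FC was 1.91 (SE 0.41, adjusted p = 0.0028), a 3.75-fold rise, with 6 of 10 CU fish above the highest FM fish. With normexp background correction its log2 FC was 0.52 and the call was lost. PRS27 (serine protease 27) had 4.01, 6.58 and 8.35 in CU fish and 3.77, 5.23 and 5.94 in FM fish, with a log2 FC of 1.67 (SE 0.39, adjusted p = 0.00512). It was measured in 5 of 10 FM fish only, and the other 5 values were imputed. With normexp background correction its log2 FC was 0.50, and with no spot set to missing 3.20. C1QL2 (a secreted protein with a C1q domain) had 5.25, 8.60 and 10.31 in CU fish, against 5.999, 7.03 and 7.70 in FM fish (log2 FC 1.59, SE 0.43, adjusted p = 0.0201). For C1QL2 8 CU fish lay above all FM fish and 1 lay below them, and a further C1QL2 probe was not called, at 0.24.

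T4S4, a membrane protein of the transmembrane 4 L6 family, had 12.05, 13.59 and 15.30 in CU fish and 11.46, 12.12 and 12.39 in FM fish, with 9 of 10 CU fish above the highest FM fish (log2 FC 1.46, SE 0.32, adjusted p = 0.00327). A further T4S4 probe, at 0.26, was not called. Syndecan-2 (SDC2), a heparan sulfate proteoglycan of the cell surface, had 8.62, 9.27 and 10.65 in CU fish, against 7.42, 8.32 and 8.56 in FM fish. The groups did not overlap, and the log2 FC was 1.19 (SE 0.23, adjusted p = 0.000839). A further SDC2 probe was not called, at −0.22. Heparanase (HPSE), which cuts the heparan sulfate chains that syndecans carry, rose by 1.18 (SE 0.36, adjusted p = 0.0388). Its call was lost without CU fish 1, FM fish 3 or FM fish 9, with values between 0.99 and 1.38 over the fits that each left out 1 fish. Only 1 of 3 HPSE probes was called, and all 3 ranged from 0.62 to 1.18. Annexin A2 (ANX2A), which binds membrane phospholipids in the presence of calcium, had 11.39, 11.82 and 12.66 in CU fish and 9.98, 10.74 and 11.23 in FM fish. These groups too were apart, with a log2 FC of 1.13 (SE 0.15, adjusted p = 1.92e-06), and 2 of 2 named ANX2A probes were called.

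Spartin (SPG20), a protein of endosomes and lipid droplets, had 8.59, 9.51 and 11.03 in CU fish and 7.82, 8.13 and 8.77 in FM fish, and 8 of 10 CU fish lay above all FM fish (log2 FC 1.27, SE 0.21, adjusted p = 0.000109). The remaining 4 of the 12 largest rises were between 1.11 and 1.303. They were B3GN7 (1.303), a glycosyltransferase that extends sugar chains, CLIC2 (1.28), a chloride intracellular channel protein, EPHA2 (1.21), a receptor tyrosine kinase for ephrins on epithelia, and NEUS (1.11), the protease inhibitor neuroserpin. Their adjusted p was between 0.00356 for EPHA2 and 0.0223 for B3GN7. Of all called probes without a name, Ssa_S47729315 rose most (log2 FC 2.08, SE 0.41, adjusted p = 0.00106), followed by Ssa_S18849311 (1.97, SE 0.25, adjusted p = 6.13e-07), for which the groups did not overlap.

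**Figure D3:**
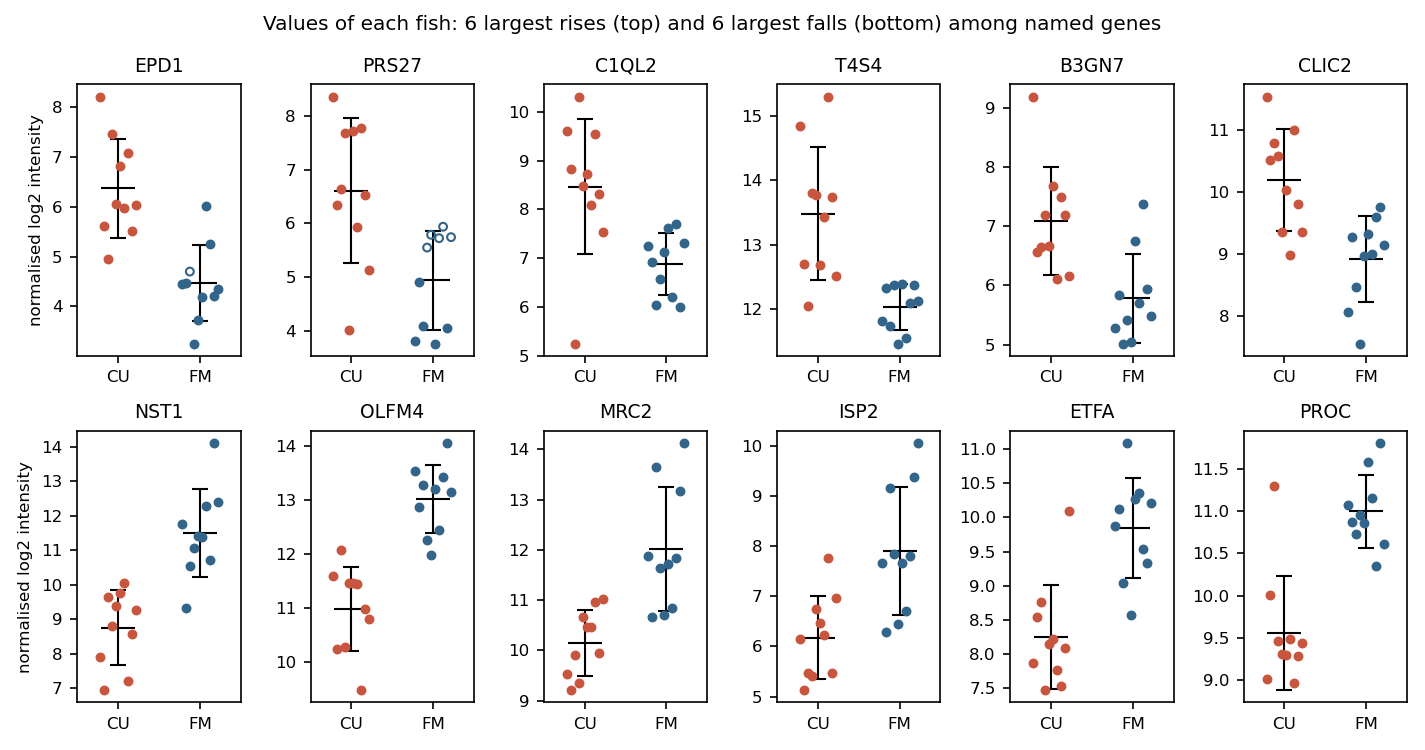
Points are the normalised log2 intensities of single fish for the 6 largest rises (top row) and the 6 largest falls (bottom row) among named genes, with CU on the left and FM on the right of each panel. Long bars are means, whiskers are SD (n = 10 each), open points are imputed values, and each panel has its own y axis. T4S4 had 9 of 10 CU fish above the highest FM fish, and OLFM4 had 9 of 10 below the lowest.

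The largest falls included proteins of the epithelium, of endocytosis and of mitochondria. NST1, whose table entry is named after an uncharacterized protein of another organism and so has no known role here, had 6.95, 9.04 and 10.07 in CU fish, against 9.32, 11.41 and 14.10 in FM fish. It fell by 2.74 on the log2 scale (SE 0.43, adjusted p = 2.85e-05), a 6.67-fold difference, although 4 CU fish lay within the FM range. OLFM4 (olfactomedin-4, a secreted glycoprotein that marks stem cells of the human intestine) had 9.49, 11.22 and 12.08 in CU fish and 11.996, 13.18 and 14.06 in FM fish, with 9 of 10 CU fish below all FM fish (log2 FC −2.04, SE 0.37, adjusted p = 0.000366). MRC2, an endocytic receptor for collagen, had 9.21, 10.20 and 11.01 in CU fish and 10.65, 11.78 and 14.12 in FM fish. Its log2 FC was −1.87 (SE 0.43, adjusted p = 0.00506), but 1 of 3 MRC2 probes was called, and all 3 ranged from −1.87 to −0.19.

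ETFA, the mitochondrial flavoprotein subunit that hands electrons from fatty acid oxidation to the respiratory chain, had 7.47, 8.13 and 10.10 in CU fish, against 8.57, 10.002 and 11.08 in FM fish. It fell by 1.59 (SE 0.29, adjusted p = 0.000461), and 8 CU fish lay below all FM fish. PROC, the zymogen of the anticoagulant protease protein C, had 8.97, 9.38 and 11.30 in CU fish and 10.35, 10.91 and 11.80 in FM fish, with 9 CU fish below all FM fish (log2 FC −1.44, SE 0.28, adjusted p = 0.00106). RD23B, which takes part in DNA repair and carries ubiquitinated proteins to the proteasome, had 6.03, 6.74 and 7.51 in CU fish and 7.27, 8.08 and 8.46 in FM fish. Here 9 of 10 CU fish were below the FM range, and the log2 FC was −1.20 (SE 0.18, adjusted p = 8.9e-06).

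The other 6 of the 12 largest falls were ISP2 (−1.73, adjusted p = 0.0194), a lectin-like ice-structuring protein of fish, CP2CR (−1.35, adjusted p = 0.00194), a cytochrome P450 of the 2C family, GPNMB (−1.24, adjusted p = 0.00456), a membrane glycoprotein of phagocytes and pigment cells in mammals, BHE41 (−1.18, adjusted p = 0.00144), a transcriptional repressor of the circadian clock, MA2B1 (−1.17, adjusted p = 0.048), the lysosomal alpha-mannosidase, and DAB2 (−1.15, adjusted p = 0.0202), a clathrin adaptor of endocytosis. A further DAB2 probe was not called, at −0.38. With normexp background correction the log2 FC of CP2CR was −0.29 and the call was lost. The call of MA2B1 was lost without CU fish 2, 4 or 8 or FM fish 4, 7 or 9, with values between −1.30 and −1.01 over the fits that each left out 1 fish. Without a name, Ssa_TC89077 fell by 2.64 (SE 0.34, adjusted p = 9.37e-07), with no overlap of the groups, and Ssa_S29966058 fell by 2.18 (SE 0.47, adjusted p = 0.00293).

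Individual CU fish differed in how far they stood from FM. CU fish 1, with a histology sum of 4, had the highest value for 8 of the 12 largest rises. CU fish 4, with a sum of 6, had the lowest value for 5 of the 12 largest falls, and fish 2 and 8 (sums of 4 and 2) for 3 each. CU fish 10 (sum of 1) had the highest value for 6 of these falls, fish 3 (sum of 0) for 4, and fish 7 (sum of 0) and 8 for 1 each. The lowest value for a rise was in fish 3 for 4 of the 12, in fish 2 and 7 for 3 each and in fish 5 (sum of 0) for 2, so that fish 2 was the CU fish lowest in 3 of the falls and also in 3 of the rises. Over all probes the SD among CU fish was 1.02 times that among FM fish (median ratio). The tissue was whole distal intestine, where fewer cells of a type and less RNA per cell cannot be told apart.

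In the lysosome and brush border lists more probes were called lower than higher in CU. Of 54 lysosome probes 15 were called lower and 1 higher (29.6%, beside 16.8% of all named probes), and 44 had a log2 FC below 0, with a median of −0.27. Beside MA2B1, the falls included PPGB (log2 FC −1.01, adjusted p = 0.0263), the protective protein cathepsin A, and SAP3 (−0.82, adjusted p = 0.0147), the activator of GM2 ganglioside breakdown. PPGB had 6.64, 8.67 and 9.75 in CU fish and 9.05, 9.71 and 9.89 in FM fish, so that 7 of 10 CU fish lay below all FM fish. Further probes of MA2B1, PPGB and SAP were called by the nested test with adjusted p-values between 0.0601 and 0.0663 in their own contrast. The MA2B1 probe among them had −0.87 (adjusted p = 0.0621). VPP2, a subunit of the vacuolar proton pump, was the member called higher (0.74, adjusted p = 0.0126). The contrast alone called 11 lysosome probes lower and 1 higher. Without CU fish 2 the calls were 7 lower, without CU fish 4 8 and without FM fish 4 9, and with CU and FM fish alone in the model 2 were lower. Within scan day 1 12 lysosome probes were called lower, and within day 2 2 lower and 2 higher. Over all probes 711 were lower and 52 higher within day 1, and 109 lower and 289 higher within day 2.

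Of 33 probes for brush border peptidases and nutrient transporters 27 had a log2 FC below 0 (median −0.30). In this list 4 were called lower and none higher (12.1%, beside 16.8% of all named probes called and 9.91% called lower). They were DAB2, SC5A6 (−0.61, adjusted p = 0.0105), the sodium-dependent multivitamin transporter, S22A5 (−0.60, adjusted p = 0.0493), a carnitine transporter, and DPP2 (−0.42, adjusted p = 0.0412), a dipeptidyl peptidase of intracellular vesicles in mammals. The list thus also held an endocytosis adaptor (DAB2) and a vesicle peptidase (DPP2), which its heading does not cover. SC5A6 had 5.35, 6.24 and 6.62 in CU fish and 6.25, 6.67 and 7.17 in FM fish, with 6 CU fish below all FM fish. The call of S22A5 was lost in 9 and that of DPP2 in 4 of the 20 fits that each left out 1 fish. The list had 2 lower calls without FM fish 4 or FM fish 10, and 6 lower and 2 higher without CU fish 3. Of 9 aquaporin and tight junction probes 1 was called (11.1%, beside 16.8% of all named probes called and 9.91% called lower). AQPA, an aquaporin, was called lower by the nested test, at −0.56 (SE 0.31, adjusted p = 0.285). Among 19 probes for lipid absorption 2 were called higher and 2 lower (21.1%, beside 16.8% of all named probes). The secretory phospholipases A2 PG12B (0.63, adjusted p = 0.0152) and PG12A (0.45, adjusted p = 0.00391) rose. Called lower by the nested test were FABPH, a fatty acid-binding protein, at −0.58 (adjusted p = 0.0558) and MOG2A, which resynthesizes diacylglycerol in enterocytes, at −0.57 (adjusted p = 0.0548).

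Detoxification genes were lower in CU where called. Of 28 probes 6 were called lower and none higher (21.4%, beside 16.8% of all named probes), and 27 had a log2 FC below 0, with a median of −0.27. At an unadjusted p under 0.05 of limma's contrast 14 were lower and 0 higher. The mean over the 28 probes was 9.81, 9.93 and 10.37 in CU fish, against 10.08, 10.31 and 10.39 in FM fish, and 8 of 10 CU fish lay below the lowest FM fish. Glutathione S-transferase A (GSTA), which couples glutathione to reactive compounds, was called lower by 5 of 5 named probes, between −0.57 and −0.48, 4 of them also in the contrast alone. Its probe Ssa_GRASP221219963 had 13.19, 13.75 and 14.29 in CU fish and 13.84, 14.27 and 14.60 in FM fish (log2 FC −0.57, SE 0.11, adjusted p = 0.00122), and 7 CU fish were below the FM range. GPX4, which reduces lipid hydroperoxides, fell by 0.84 (SE 0.26, adjusted p = 0.0419). With normexp background correction its log2 FC was −0.25, and the list held 4 lower calls. Without CU fish 3 the list held 11 lower calls. Within scan day 1 10 detoxification probes were called lower and within day 2 3, beside 711 and 109 lower over all probes.

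Of 26 probes for the peroxisome and fatty acid oxidation, with a median of −0.15, 4 were called lower and none higher. That was 15.4%, beside 16.8% of all named probes called and 9.91% called lower. HAOX2, which oxidizes hydroxy acids in the peroxisome, had 9.56, 10.16 and 11.12 in CU fish and 10.47, 10.90 and 11.21 in FM fish, with 9 CU fish below all FM fish (log2 FC −0.73, SE 0.18, adjusted p = 0.0103). OXDA, the D-amino-acid oxidase, fell by 0.52 (adjusted p = 0.0325) and the peroxisomal bifunctional enzyme ECHP by 0.42 (adjusted p = 0.0474). A further ECHP probe was not called, at −0.27. Catalase (CATA) was called by the nested test, at −0.57 (adjusted p = 0.09). Of 12 tryptophan metabolism probes 3 were called lower (25%, beside 16.8% of all named probes). ACMSD, which steers the kynurenine pathway away from NAD, fell by 0.47 (adjusted p = 0.0265), and DDC, which makes serotonin and dopamine from their precursors, by 0.46 (adjusted p = 0.0419). GCDH, a dehydrogenase of lysine and tryptophan breakdown, was at −0.53 (adjusted p = 0.125).

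Of 14 iron and haem probes 10 were not called, and the calls (28.6%, beside 16.8% of all named probes) were of FRIM and HEM1 alone. The middle subunit of ferritin (FRIM), the protein that stores iron, was called lower by 3 of 3 named probes, between −0.65 and −0.59, with adjusted p-values of 0.000211 to 0.00106. The FRIM probe Ssa_DW473530 had 16.07, 16.42 and 16.98 in CU fish and 16.78, 17.03 and 17.33 in FM fish, and 8 CU fish lay below all FM fish. HEM1, the enzyme that starts haem synthesis, had 12.54, 13.03 and 13.97 in CU fish and 11.96, 12.61 and 12.94 in FM fish. It rose by 0.75 (SE 0.15, adjusted p = 0.000906), with 7 CU fish above the FM range, and a further HEM1 probe was not called, at 0.49.

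Of 10 arginine and polyamine probes 2 were called higher and 1 lower (30%, beside 16.8% of all named probes). Ornithine decarboxylase (DCOR), which starts polyamine synthesis, rose by 0.65 (SE 0.17, adjusted p = 0.0154), and DCOR1 was at 0.43 (adjusted p = 0.0538). SAT2, an acetyltransferase placed in this list, had 9.63, 10.20 and 11.13 in CU fish and 10.42, 10.88 and 11.15 in FM fish. It fell by 0.64 (SE 0.15, adjusted p = 0.00783). Of 12 respiratory chain probes 1 was called higher and 1 lower (16.7%, close to the 16.8% of all named probes). Both calls were of cytochrome c oxidase, with COX8B higher (0.47, adjusted p = 0.0223) and COX42 lower (−0.47, adjusted p = 0.0201). Of 13 probes for sterol and polyunsaturated fatty acid synthesis 1 was called (7.69%, beside 16.8% of all named probes called and 6.91% called higher). DHCR7, the last enzyme of cholesterol synthesis, was called by the nested test, at 0.50 (adjusted p = 0.205).

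Genes of protein folding were higher in CU where called. Of 31 probes 8 were called higher and none lower (25.8%, beside 16.8% of all named probes), 27 had a log2 FC above 0, and the median was 0.28. At an unadjusted p under 0.05 of limma's contrast 19 were higher and 0 lower. The mean over the list was 9.87, 10.13 and 10.41 in CU fish, against 9.40, 9.90 and 10.09 in FM fish, with 7 of 10 CU fish above all FM fish. HSP7C, a constitutive chaperone of the HSP70 family, had 11.94, 12.63 and 13.07 in CU fish and 11.43, 11.74 and 12.25 in FM fish (log2 FC 0.80, SE 0.14, adjusted p = 0.000269). Here 8 CU fish were above the FM range, and a further HSP7C probe rose by 0.47 (adjusted p = 0.00784). HSP70 rose by 0.78 (SE 0.14, adjusted p = 0.000248), and since these chaperones are close in sequence their probes may share signal. In the endoplasmic reticulum, calreticulin (CALR) rose by 0.69 (SE 0.16, adjusted p = 0.00407) and the co-chaperone DJB11 by 0.57 (SE 0.16, adjusted p = 0.0233), while a further CALR probe was not called, at 0.30. With normexp background correction 3 of the 8 calls of this list were made. Without FM fish 3, 5 were made, and with CU and FM fish alone in the model 2. Within scan day 1 3 protein folding probes were called higher and within day 2 7, beside 52 and 289 higher over all probes.

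Other lists of protein and cell turnover lay mostly above 0 with few calls. Of 22 aminoacyl-tRNA synthetase probes limma called none, although 21 had a log2 FC above 0 (median 0.23) and 10 were higher and 1 lower at an unadjusted p under 0.05. SYYC, which charges the tRNA for tyrosine, was at 0.32 (adjusted p = 0.034) and SYDC, for aspartate, at 0.25 (adjusted p = 0.0586), both under the limit of 0.4. Of 20 proteasome probes 17 were above 0 and 1 was called (5%, under the 16.8% of all named probes). PSMD4, a ubiquitin receptor of the proteasome, was called lower by the nested test at −0.41 (adjusted p = 0.0538) while a further PSMD4 probe was at 0.28. Of 24 ribosome biogenesis probes 20 were above 0 and 1 was called (4.17%, under the 16.8% of all named probes). NOL6, a nucleolar protein of ribosomal RNA processing, fell by 0.66 (adjusted p = 0.0039), with a further probe not called at −0.39.

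Of 23 cell cycle probes 4 were called higher and none lower (17.4%, beside 16.8% of all named probes called and 6.91% called higher). The median was 0.29, and 12 were higher at an unadjusted p under 0.05. CKS1, a small subunit of cyclin-dependent kinases, had 9.07, 9.56 and 9.85 in CU fish and 7.98, 8.94 and 9.56 in FM fish, with 5 CU fish above the FM range (log2 FC 0.60, SE 0.14, adjusted p = 0.00456). Cyclin-A2 (CCNA2), which drives DNA replication and entry into mitosis, rose by 0.43 (adjusted p = 0.0398). The other called members are known to hold the cycle back. WEE1B, a kinase that holds back mitosis, rose by 0.46 (adjusted p = 0.0234), and the inhibitor CDN1A was at 0.80 by the nested test. In its own contrast CDN1A had an adjusted p of 0.0664, and its call was lost in 15 of the 20 fits that each left out 1 fish. Without CU fish 4, FM fish 3 or FM fish 7, 2 cell cycle probes were called.

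**Figure D4:**
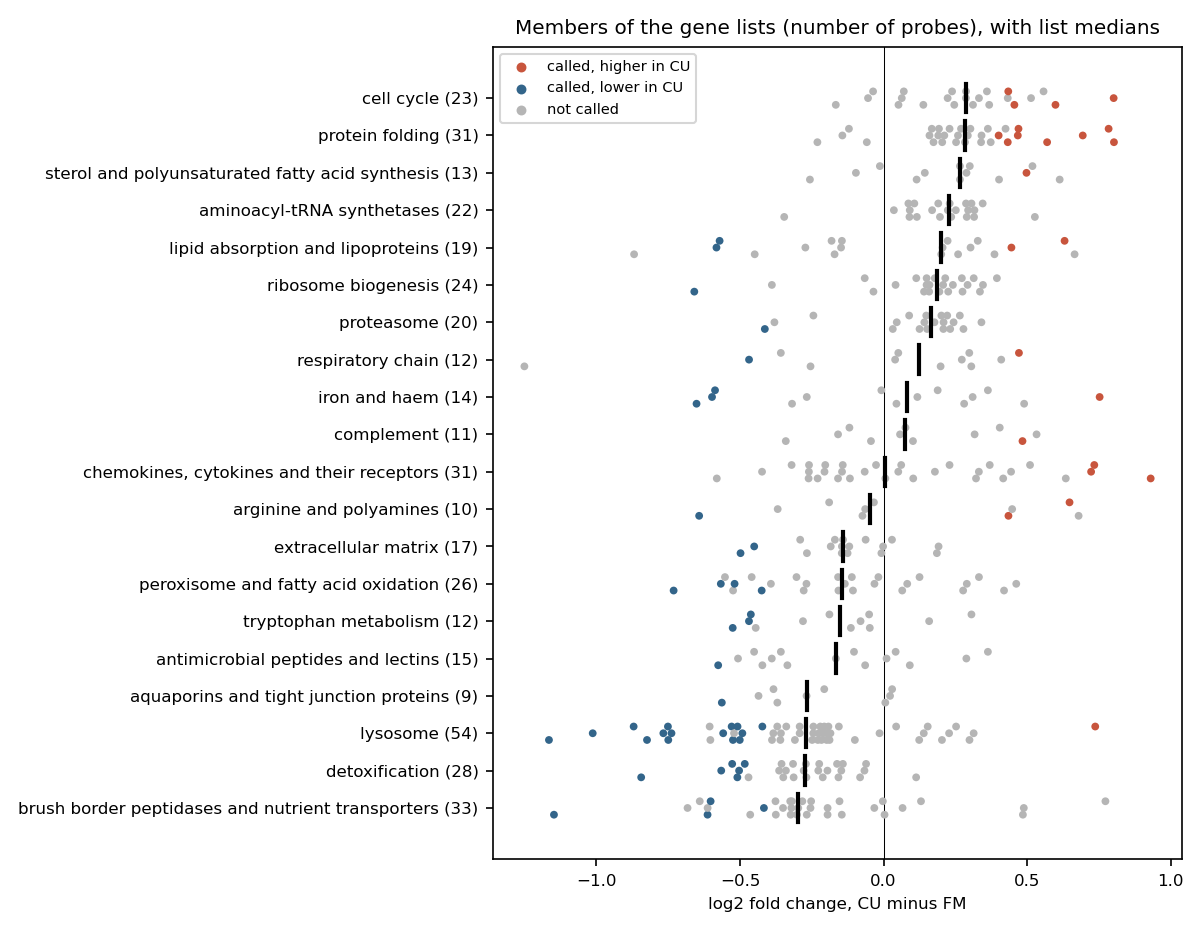
Each point is a probe of the gene list named on the left (number of probes in parentheses), placed by its log2 FC of CU minus FM, and the vertical bar is the median of the list. Lists are in the order of their medians, from 0.29 for the cell cycle at the top to −0.30 for brush border peptidases and nutrient transporters at the bottom.

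Immune and matrix lists held few calls. Of 31 probes for chemokines, cytokines and their receptors 3 were called higher and none lower, and the median was 0.01. That was 9.68%, beside 16.8% of all named probes called and 6.91% called higher. Both named probes of CML1, a receptor on macrophages and dendritic cells, rose, by 0.93 (SE 0.27, adjusted p = 0.0281) and 0.73 (SE 0.22, adjusted p = 0.0378). The chemokine CCL20, which draws lymphocytes and dendritic cells to the gut epithelium, was at 0.72 (adjusted p = 0.0576), with another of its 3 probes at −0.42. Without FM fish 3 none of these was called, and without CU fish 1 or FM fish 4 1 was. CD59, which shields host cells from complement, had 13.89, 14.24 and 14.75 in CU fish and 13.54, 13.75 and 14.05 in FM fish. It rose by 0.48 (SE 0.09, adjusted p = 0.000365), with 8 CU fish above the FM range, while a further CD59 probe, at 0.06, was not called. CD59 was the called member among 11 complement probes (9.09%, beside 16.8% of all named probes called and 6.91% called higher). Of 15 probes for antimicrobial peptides and lectins 1 was called (6.67%, under the 16.8% of all named probes). Lysozyme C II (LYSC2), which cuts bacterial cell walls, fell by 0.58 (adjusted p = 0.0342). Of 17 extracellular matrix probes 2 were called lower (11.8%, beside 16.8% of all named probes called and 9.91% called lower). They were COGA1 (collagen XVI), which fell by 0.45 (adjusted p = 0.035), and CO4A1 (collagen IV), at −0.50 (adjusted p = 0.0525).

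Outside the B cell list, few marker probes of the cell types in the tissue were called. Of 11 T cell probes 1 was called lower (9.09%, under the 16.8% of all named probes), and 10 of 11 were below 0. It was of the receptor gene TVA3, at −0.66 (adjusted p = 0.0714), and a further TVA3 probe was not called, at −0.095. The mean over the T cell list was between 5.30 and 6.18 in CU fish and between 5.69 and 6.43 in FM fish. Of 8 B cell probes 2 were called lower by the nested test (25%, beside 16.8% of all named probes). They were the membrane form of IgM (MUCM) at −0.56 and the polymeric immunoglobulin receptor (PIGR), which enterocytes make, at −0.41, both with an adjusted p of 0.322. Of the 8 B cell probes 5 had a log2 FC below 0 and 3 above, up to 0.64. At an unadjusted p under 0.05 of limma's contrast 1 was higher and 0 lower. The mean over the B cell list was between 6.47 and 7.37 in CU fish and between 6.18 and 7.56 in FM fish. None of the 6 antigen presentation, 8 phagocyte, 7 smooth muscle or 2 endothelium probes was called by limma, and at an unadjusted p under 0.05 these lists held 1, 3, 1 and 0 probes. The antigen presentation probe was lower, the smooth muscle probe was higher, and of the phagocyte probes 2 were higher and 1 lower. The antigen presentation mean was between 12.48 and 13.35 in CU fish and between 12.79 and 13.33 in FM fish, and 6 of 10 CU fish lay below the lowest FM fish. For phagocytes the mean was between 7.63 and 8.25 in CU fish and between 7.31 and 8.12 in FM fish.

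The enterocyte markers were present in both groups. Intestinal fatty acid-binding protein (FABPI) had 14.28, 14.91 and 15.44 in CU fish and 14.54, 14.86 and 16.36 in FM fish, with a log2 FC of −0.18 (SE 0.29, adjusted p = 0.763). The mean over the 14 absorptive epithelium probes was between 11.30 and 12.16 in CU fish and between 11.26 and 12.29 in FM fish. Of the 14, a keratin 18 probe (K1C18) was called higher (0.51, adjusted p = 0.0112), 1 of 3 for that gene. That was 7.14% of the list, beside 16.8% of all named probes called and 6.91% called higher. Of the 14 probes 8 had a log2 FC below 0 and 6 above, from −0.61 to 0.67, with a median of −0.22. The part of these cell types in the differences above was not tested. Markers of goblet cells, exocrine pancreas, erythrocytes and liver were not analysed here, since no probe carried their names.

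The named genes were set beside the other diets that hold soybean meal. All 5 comparisons share the FM fish, so their values are given side by side without a test of likeness. The log2 FC of EPD1 against FM was 1.91 in CU, 1.66 in CV, 1.83 in KM, 3.03 in SC and 3.67 in SBM. MRC2 was at −1.87 in CU, −0.63 in CV, −1.71 in KM, −2.84 in SC and −2.55 in SBM. For ANX2A the values lay closer together, at 1.13 in CU, 1.102 in CV, 0.96 in KM, 1.32 in SC and 1.64 in SBM. For RD23B the value in CU, −1.20, lay beside −0.46 in CV, −0.62 in KM, −1.18 in SC and −1.02 in SBM.

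**Figure D5:**
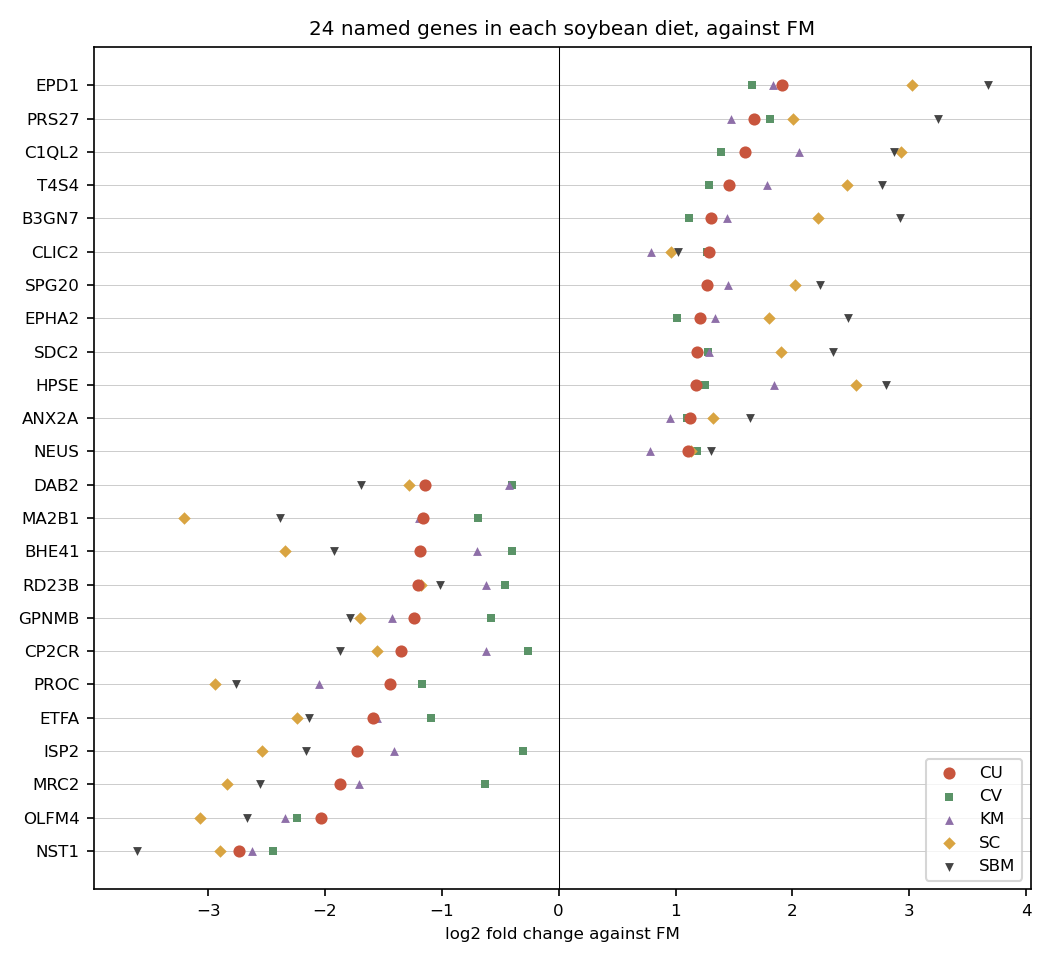
Symbols give the log2 FC against FM of the 24 named genes with the largest changes in CU, for each of the 5 diets with soybean meal. CU (large circles) lies at 1.91 for EPD1, where the diets run from 1.66 in CV to 3.67 in SBM, and at −1.87 for MRC2, where they run from −2.84 in SC to −0.63 in CV. All diets share the FM fish.

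A second contrast set CU against the mean of the other 4 soybean diets. FM fish are on neither side of it, but it came from the same model, where they entered the estimate of the spread. It called 576 probes (4.77%), 63 higher (0.522%) and 513 lower (4.25%) in CU, but the median difference over all probes was −0.11, and with the median of each diet taken off 149 were higher and 85 lower. Of the 398 probes lower in CU than in FM, 337 were not called in this contrast, and of the 243 higher than in FM 228 were not. Against the other soybean diets 41 of the probes lower than FM were lower too and 20 were higher, and 13 of those higher than FM were lower and 2 higher too. With the medians taken off, these 4 counts were 8, 30, 2 and 3. The number called ranged from 184 to 831 over the fits that each left out 1 fish, with 184 without CU fish 2, 313 without fish 3, 238 without fish 6 and 194 without fish 7. With slide column as a block 1 probe was called, lower in CU, and 0 higher. No higher call in this contrast, here or below, was thus kept, and at most 1 of all its lower calls. Most KM arrays lay in column 2, SBM and CV arrays in column 3 and SC arrays in column 4. Slide position and diet can thus hardly be told apart in this contrast either.

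Geminin (GEMI), an inhibitor of DNA replication licensing, was the named gene higher in CU than in both FM and the other soybean diets. It had 9.34, 10.11 and 10.43 in CU fish and 8.79, 9.47 and 10.36 in FM fish, where the ranges largely overlapped. The log2 FC was 0.54 against FM (SE 0.15, adjusted p = 0.0225) and the difference from the other soybean diets 0.44 (adjusted p = 0.0203), while CV was at 0.32, KM at 0.17, SC at −0.10 and SBM at 0.00 against FM. It was also called with 75th percentile scaling, with the deposited values and with the medians taken off, but not with slide column as a block. The aquaporin AQPA was lower than in the other soybean diets by a difference of −1.03 (adjusted p = 0.0104). This call too was made with 75th percentile scaling, with the deposited values and with the medians taken off. With slide column as a block, at most 1 lower call of this contrast was kept over all probes. Its log2 FC against FM was −0.56 in CU, 0.67 in CV, 0.50 in KM, 0.85 in SC and −0.14 in SBM.

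Lower than in both FM and the other soybean diets were RBMS3, an RNA-binding protein (2 probes, −0.68 and −0.66 against FM, −0.62 and −0.63 against the other diets), UBTD2, a ubiquitin domain protein (−0.65 and −0.68), and MK06, an atypical mitogen-activated protein kinase (−0.58 and −0.46). Their adjusted p against FM was between 0.025 for an RBMS3 probe and 0.0454 for MK06. Under 75th percentile scaling, with the deposited values and with the medians taken off, UBTD2 and RBMS3 probe Ssa_TC111932 were also called lower than in the other soybean diets. The limit given above for slide column as a block holds for these lower calls as well. MK06 and RBMS3 probe Ssa_TC74227 were called under none of these settings, with adjusted p-values of 0.202 and 0.0791 with the medians taken off. LPHN, an adhesion receptor, was also called in both, at −1.20 against FM (SE 0.73, adjusted p = 0.345) and −2.06 against the other diets (adjusted p = 0.0258), and its FM fish ranged from 6.45 to 12.08. With the medians taken off its adjusted p against the other diets was 0.0521. In the other direction, PROC was below FM and above the other soybean diets by 0.79 (adjusted p = 0.0274), as were HAOX2 by 0.48 (adjusted p = 0.0356) and OXDA by 0.44 (adjusted p = 0.0224). With 75th percentile scaling PROC and OXDA were called and HAOX2 was not. Against FM PROC was at −1.44 in CU, −1.17 in CV, −2.05 in KM, −2.94 in SC and −2.77 in SBM. HPSE was above FM and below the other soybean diets, by a difference of −0.93 (adjusted p = 0.0372), but the call against the soybean diets was lost with the medians taken off (adjusted p = 0.109), with 75th percentile scaling and with the deposited values.

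Between the lists, the brush border probes had a median difference from the other soybean diets of 0.28, with 3 called higher and 5 lower in CU. With the medians of each diet taken off the median was 0.40, with 10 higher and 1 lower. For the lysosome the median was 0.15 with 2 higher and 2 lower, and 0.28 with 9 higher and none lower with the medians taken off. Over all 12065 probes this contrast called 0.522% higher and 4.25% lower, and 149 probes higher and 85 lower with the medians taken off. Its shares over named probes were not taken, so whether the list counts of this paragraph stand out cannot be told. FABPI was higher in CU than in the other soybean diets by 0.79 (adjusted p = 0.0297), and at −0.18 in CU, −0.33 in CV, −0.33 in KM, −1.89 in SC and −1.32 in SBM against FM. The protein folding probes had a median of −0.20, and the 8 phagocyte probes had 3 lower calls, among them FCGR1, an Fc receptor for IgG, at −0.50 (adjusted p = 0.0181). With the medians taken off these 3 calls were lost, that of FCGR1 with an adjusted p of 0.102. The phagocyte median was −0.41, and −0.28 with the medians taken off.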

How the data were processed

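RNA of the distal intestine was hybridised to one-colour Agilent arrays, 57 fish in all. The authors deposited, per array, spot intensities from Feature Extraction 10.7.1.1, already background-subtracted and not scaled between arrays. A deposited table of normalised log2 values (12064 probes) was used as an alternative only, and correlated with the values computed here at 0.995 to 1 per array. Other tables of the study hold its own fold changes and p-values, of which only the gene names were used.

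Of 15377 spots per array 536 were controls, which left 14841 probes. Spots marked as non-uniform, or failing either of the scanner's tests against background, were set to missing. Intensities were quantile normalised and then put on the log2 scale. Probes absent from over 15% of arrays were dropped (2776), and 4245 values (0.617%) of the 12065 kept were imputed from the 10 nearest probes. No spot was saturated. The number of arrays limits the precision.

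One limma 3.58.1 model (R 4.3.3) over the 6 diets gave 5 contrasts with FM (nested F-test, Benjamini-Hochberg, 0.05, log2 FC of at least 0.4) and CU minus the mean of SBM, SC, KM and CV. Each gene has the adjusted p of its own contrast. The code of the fit was run on simulated data with known changes. Letters in titles were tied to diets through the histology scores of the labels. Alternatives were the scaling, background correction, dim-spot filter, imputation, model, limit, blocks and leaving out each fish. The blocks for slide column and the fits within a scan day were chosen after seeing the data. Replicate numbers were not used as pairs.

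The gene lists, and the choice of these fish, were made with earlier results of these data known. Named are the 12 largest rises and falls with a symbol that also pass in their own contrast, the 2 largest without a name in each direction, at most 4 called members of a list (or 2 where none is called), genes called in both contrasts, and cell type markers, and a few of these are not reported here. Some members and genes were named after their values were seen (VPP2, the differences of PROC, HAOX2, OXDA, AQPA and HPSE from the other soybean diets). Sequences of the probes were not used here.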

Additional observations from a re-analysis of the deposited data

Results flagged for a closer look

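In 13 of 180 groups of 10 fish (90 probes picked by the naming rules, CU and FM each) 1 fish lay far from the other 9, by Dixon's test of its gap to the next fish over the range of the group, where chance gives about 1 in 20 groups. CU fish 1 had the highest value for B3GN7, at 9.18 with the next at 7.68, and for SDC2, at 10.65 with the next at 9.55. CU fish 7 was highest for EPHA2, at 7.42 beside 5.90. CU fish 3 was highest for 3 genes that were called lower in CU, GPNMB (9.80 beside 8.13), PROC (11.30 beside 10.01) and SAT2 (11.13 beside 10.42). CU fish 10 was highest for ETFA (10.10 beside 8.76) and for both RBMS3 probes (7.39 beside 6.12 and 6.80 beside 5.98), which were likewise called lower. Among FM fish, fish 6 was lowest for NEUS (6.95 beside 8.99) and highest for DHCR7 (7.08 beside 6.03). FM fish 3 was lowest for DDC (6.31 beside 6.90) and CALR (5.005 beside 5.75).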

How the results depend on the processing

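Of the 24 named genes with the largest changes 8 kept their call under the alternatives run gene by gene with the limit of 0.4, which for slide column as a block use the nested test (SPG20, SDC2, ANX2A, BHE41, RD23B, ETFA, MRC2 and NST1), and 22 whichever fish was left out, all but HPSE and MA2B1. The naming rules picked 88 called probes, those without a symbol among them, out of the 641 called. Of these 88 probes 16 kept the call under these alternatives, 10 of them also with a limit of 1 on the log2 FC, and 62 whichever fish was left out. None of these probes passed in the contrast alone with slide column as a block. CU and FM fish alone in the model lost 55 of these calls, slide column as a block 39 and normexp 28. The number of probes called against FM was 641. It was 333 with normexp, 144 with CU and FM fish alone in the model and 398 within scan day 2. Without a limit on the log2 FC it was 1297, and with a limit of 1 it was 54. It ranged from 482 (without CU fish 1) to 827 (without CU fish 10). Against the other soybean diets it was 576. It was 260 with 75th percentile scaling, 130 with normexp, 159 with no spot set to missing, 182 where dim spots were taken out after normalization, 205 with the deposited values, 884 with no limit, 20 with a limit of 1, 234 with the medians of each diet taken off and 1 with slide column as a block, and from 184 to 831 with 1 fish left out. LPHN turned from −1.20 to 1.66 with slide column as a block. The cause of these shifts was not tested. A block for the replicate number gave 663 and 718 calls, and lost those of CDN1A, PIGR, MUCM and MA2B1 probe Ssa_S18888482. Fish of one number shared a slide in 9 of 10 cases. Of such pairs 6 of 10 correlated above 0.1 (−0.04 to 0.38), and 4 of 10 CU fish correlated best with their own number. The numbers were not taken as pairs in the main fit. A shared effect of slide or number was not tested beyond the blocks, and slide as a block gave 716 and 720 calls. Signal over background limits what could be tested, since 2776 dim probes were dropped, and among the 24 genes EPD1, B3GN7, EPHA2 and CP2CR lost their call with normexp, which moved the log2 FC of 8 of the 24 by over 1.5 times.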

Other observations

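The 15 probes for which CU and FM fish did not overlap include 7 with a name, listed here after their values were seen. Beside ANX2A and SDC2 they were the following. T4S1, a membrane protein of the same family as T4S4, had 13.84, 14.14 and 15.03 in CU fish and 12.88, 13.39 and 13.75 in FM fish, with a log2 FC of 0.83 (SE 0.12, adjusted p = 9.82e-06). A further annexin A2 gene (ANXA2) had 14.17, 14.61 and 15.52 in CU fish and 13.08, 13.72 and 14.12 in FM fish (log2 FC 1.04, SE 0.15, adjusted p = 7.34e-06), and its probe may share signal with those of ANX2A. The selenoprotein SELH, a nuclear protein of redox control, had 9.97, 10.80 and 11.20 in CU fish, against 11.33, 11.49 and 11.69 in FM fish, and fell by 0.75 (SE 0.10, adjusted p = 1.66e-06). RNF41, an E3 ubiquitin ligase, fell by 0.42 (SE 0.10), with CU fish between 9.63 and 9.94 and FM fish between 10.01 and 10.42. TPRGL rose by 0.59 (SE 0.08), with CU fish between 11.85 and 12.61 and FM fish between 11.27 and 11.80.

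The unnamed probes without overlap had log2 FCs between −2.64 (Ssa_TC89077) and 1.97 (Ssa_S18849311). Ssa_S35557680 was at 1.12, with an adjusted p of 6.13e-07, and had CU fish between 10.25 and 11.81 and FM fish between 9.33 and 10.12.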
